A study of Macaca fascicularis with 6 samples.

Results

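The 10 genes described here, *NANOG*, *SOX2*, *SALL4*, *ZFP42*, *DPPA4*, *TDGF1*, *LIN28A*, *LIN28B*, *L1TD1* and *DNMT3B*, are known markers of the pluripotent state. They were chosen by name, with earlier results of these data known. All 10 were listed among the 13950 genes of a matrix of cyiPSCs and pre-transplant cyiPS-Cart cells and among the 14020 genes of a second matrix that holds 320 cells of each of 4 conditions. *POU5F1* was not listed in either matrix and has no value here.

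The study made cartilage organoids (cyiPS-Cart) from induced pluripotent stem cells of the cynomolgus monkey (cyiPSCs) and press-fitted them into defects of the knee cartilage of other monkeys. Single cells were profiled by TAS-Seq, a whole-transcriptome method on BD Rhapsody beads, in 5 conditions. The cyiPSCs were undifferentiated cells of a single line that carries EGFP under a CAG promoter in the AAVS1 locus and has homozygous MHC haplotypes, and they were grown on mouse embryonic fibroblast feeder cells. Pre-transplant cyiPS-Cart was the cartilage derived from that line in medium with BMP2, TGF-β1 and GDF5. Post-transplant cyiPS-Cart was the graft taken back from the chondral defects 4 months after surgery, without immunosuppressive drugs, and its label gives a wild type genotype and an age of 3 to 4 years, although every cell had EGFP reads. Native cartilage of the joint (cyAC) and the fibrous tissue grown in defects left empty (cyFT) came from wild type monkeys of 3 to 4 years and were never made from cyiPSCs. In each animal 2 transplanted sites were combined, and the number of animals behind a library is not given in the sources used here.

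Each condition was 1 sample, so no test between conditions was possible, and every interval below is a 95% interval of counting error alone. The cyiPSCs and pre-transplant cells shared 1 library, cyAC and cyFT shared another, and post-transplant cells had their own, so that a difference between libraries and a difference between those conditions cannot be told apart. The median depth was 143075 reads in 2500 cyiPSCs, 59249 in 3527 pre-transplant cells, 80335.5 in 320 post-transplant cells, 29699 in cyAC and 27499.5 in cyFT. Because shares of cells with a read depend on depth, shares are also given after each cell was thinned at random to 30967 reads, which left 2440 cyiPSCs and 3174 pre-transplant cells. Reads of the EGFP transgene were found in every cyiPSC, pre-transplant and post-transplant cell and in 0 of 320 cells each of cyAC and cyFT, which allows a share of up to 0.938%. The chondrocyte markers *ACAN* and *COL2A1* were found in 99.4% and 92.5% of pre-transplant cells and in 2.36% and 0.4% of cyiPSCs.

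Pluripotency, the capacity of a cell to form every tissue of the body, is held by a network of transcription factors in which NANOG, SOX2 and OCT4, the product of *POU5F1*, act on their own genes and on each other's. RNA-binding proteins and a chromatin state typical of the early embryo accompany that network, which is shut down when cells take on a lineage such as cartilage. Remaining undifferentiated cells are a concern in grafts made from pluripotent cells, which can form teratomas.

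The levels of the 10 genes were first compared between cyiPSCs and pre-transplant cyiPS-Cart within their shared library. In pre-transplant cells 9 of 10 members were at least 4-fold lower, with a median log2 ratio of −4.30 over all 10 on the log2(CPM + 1) scale. A level in CPM is the summed reads of a gene in a condition for every 1000000 reads of that condition. Among the 8576 listed genes with at least 10 CPM in either condition, 13.7% were as low and the median log2 ratio was −0.61. *DPPA4* did not pass this minimum, and of the 9 members that did, 8 passed it only through their level in cyiPSCs, so that their count cannot be read as support against that share. Scaling factors from edgeR's TMM method shifted log2 ratios up by 0.67 before the pseudocount and the median of all genes to 0.09. Under them 7.76% of all genes were at least 4-fold lower and 13.4% higher, against 13.7% and 8.41% without, while the same count of 9 members was lower.

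Among the transcription factors, *SOX2*, which acts in pluripotent cells and later in neural and other lineages, was at 279 CPM (277 to 280.1) in the cyiPSCs and 5.04 CPM (4.76 to 5.33) in cells of pre-transplant cyiPS-Cart, a log2 ratio of −5.53. *SALL4*, a zinc finger factor bound to the NuRD complex, was at 117 CPM (116 to 118) and 2.96 CPM (2.74 to 3.18), a log2 ratio of −4.90. *NANOG*, a homeobox factor of the core network, was at 19.9 and 0.499 CPM, a log2 ratio of −3.80. The sparse factor *ZFP42*, also known as REX1 and used as a reporter of naive pluripotency, was at 15.8 CPM (15.4 to 16.1) and 0.341 CPM (0.271 to 0.423), a log2 ratio of −3.64. For each of the 4 factors the intervals of the conditions lay far apart, and the pre-transplant level was between 1.81% and 2.53% of the cyiPSC level.

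*TDGF1*, which encodes the NODAL co-receptor CRIPTO, was at 34.7 CPM (34.2 to 35.3) in the cyiPSCs and 0.824 CPM (0.713 to 0.947) in cells of pre-transplant cyiPS-Cart, a log2 ratio of −4.29. In human cells *TDGF1* and *NANOG* have processed copies elsewhere in the genome, and how reads shared with such copies were assigned is not given in the sources used here. The RNA-binding proteins LIN28A and LIN28B block maturation of the let-7 microRNAs. *LIN28A* was at 22 and 0.557 CPM, a log2 ratio of −3.88, and *LIN28B* was at 37.8 CPM (37.2 to 38.3) and 0.961 CPM (0.841 to 1.09), a log2 ratio of −4.30. *L1TD1*, an RNA-binding protein derived from a LINE-1 element, was at 324 CPM (323 to 326) and 6.43 CPM (6.11 to 6.76), a log2 ratio of −5.45. These 4 genes kept between 1.98% and 2.55% of their cyiPSC level.

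*DNMT3B*, a de novo DNA methyltransferase of early embryonic cells, had the largest difference of the 10. It was at 1682 CPM (1678 to 1686) and 11.2 CPM (10.7 to 11.6), 0.663% of the cyiPSC level and a log2 ratio of −7.11, and it ranked 4 of 8576 genes from the most lowered. The authors' background correction set low counts to 0 in genes with high maxima, and *DNMT3B* was the member on which this showed, since its lowest count above 0 in that library was 9 reads against 1 read for the other 9. *SOX2* ranked 14 and *L1TD1* ranked 17 in the same order. *DPPA4*, a nuclear protein of the early embryo, stood at the other end, at 4.33 CPM (4.13 to 4.53) and 0.786 CPM (0.678 to 0.907). Its log2 ratio was −1.58, and its pre-transplant level was 18.2% (15.5 to 21.1) of its cyiPSC level.

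**Figure D1:**
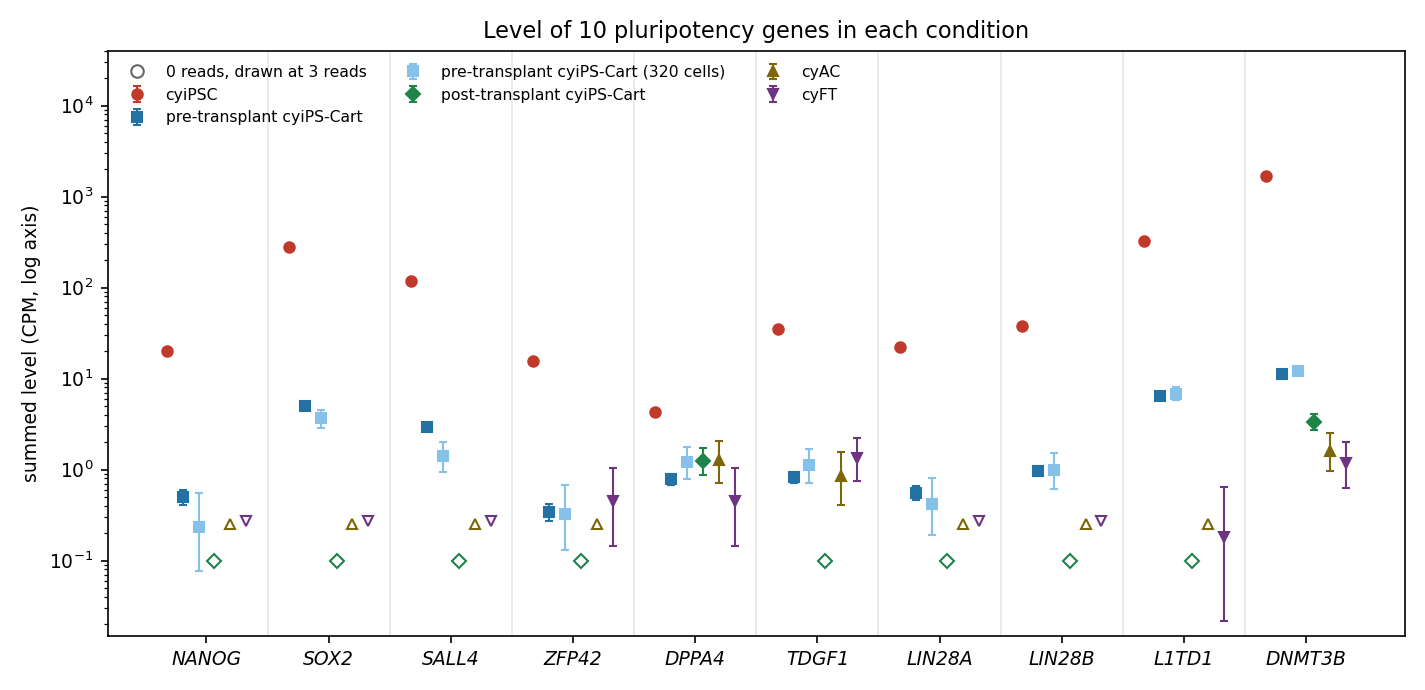
Summed level in CPM (log axis) of each of the 10 genes in each condition, with 95% Poisson intervals of the summed reads, and open symbols at the value of 3 reads where no read was found. The cyiPSC point is the highest for each gene, from 4.33 CPM for DPPA4 to 1682 CPM for DNMT3B, and in post-transplant cells 8 genes had no read.

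Detection in single cells followed the same order between conditions for all 10 genes, while the share of cyiPSCs with a read varied widely among them. Reads of *DNMT3B*, *L1TD1* and *SOX2* were found in 98.2%, 97.8% and 97.2% of cyiPSCs, and *SALL4* in 92.1%. After thinning the first 3 were found in 98.9%, 97.4% and 96.1%, and *SALL4* in 82.3%. *LIN28B* was found in 74.4% of cyiPSCs, *TDGF1* in 62.2%, *ZFP42* in 50.7% and *DPPA4* in 21%. Thinned, these shares were 51.6%, 42.5%, 26.6% and 8.07%, and those of *LIN28A* and *NANOG* were 35.1% and 31.6%. A cyiPSC without a read of one of these 6 genes was therefore common at this depth, and a missing read does not show that the gene was silent in that cell.

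In pre-transplant cells *L1TD1* was found in 21.5% (20.2 to 22.9) and *SOX2* in 18.4% (17.1 to 19.7) of 3527 cells, or 13% and 10.2% after thinning. *SALL4* was found in 9.75% (5.32% thinned), *DNMT3B* in 5.02% (5.45% thinned), and *DPPA4* and *LIN28B* in 3.69% each (2.21% and 1.83% thinned). The shares of *TDGF1*, *LIN28A*, *NANOG* and *ZFP42* lay between 1.42% and 2.38%, and between 0.693% and 1.29% thinned. Most of these detections were single reads. Among pre-transplant cells positive for a gene, cells with exactly 1 read made 59.2% (*LIN28A*) to 76.2% (*DPPA4*) for the 9 genes other than *DNMT3B*, against 0.614% (*L1TD1*) to 42.6% (*DPPA4*) in cyiPSCs. The median count of a *DNMT3B*-positive cell was 13 reads in pre-transplant cells and 231 reads in cyiPSCs. In cyAC and cyFT, tissues that were not made from cyiPSCs, no member was found in more than 3.12% of 320 cells, at median depths of 29699 and 27499.5 reads in their own library. The highest of these shares was that of *DPPA4* in cyAC, at 1.27 CPM, and whether reads in these tissues are background was not tested.

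**Figure D2:**
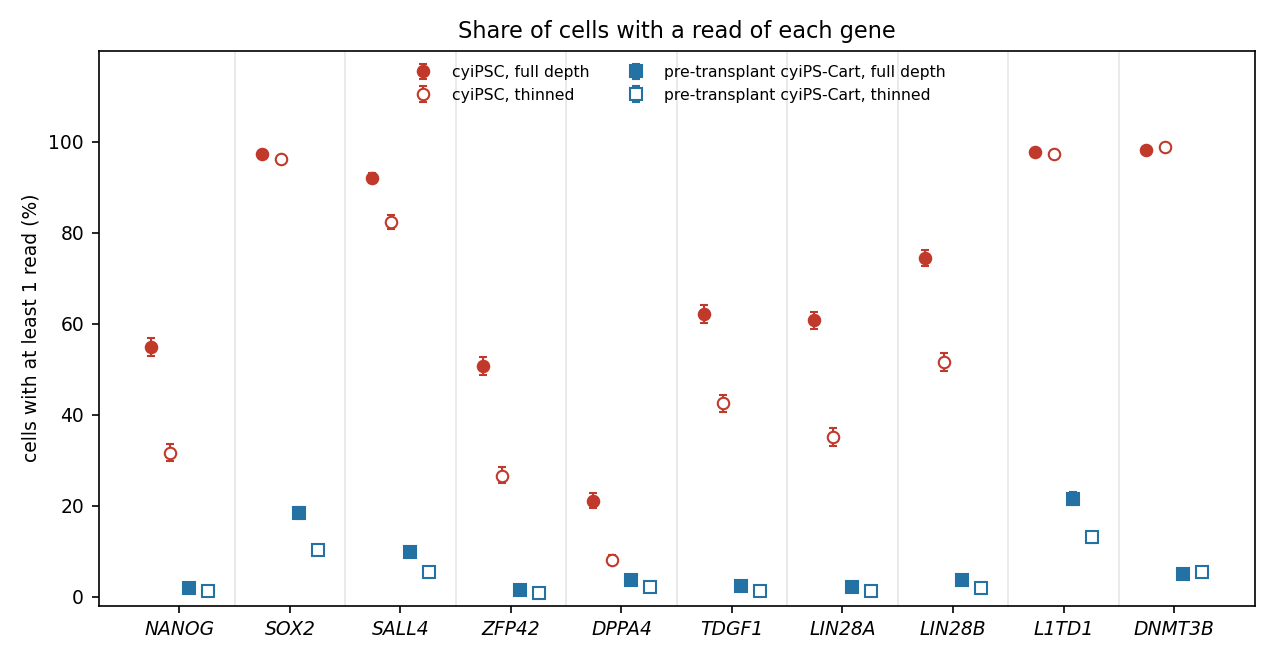
Percent of cells with at least 1 read of each gene in cyiPSCs (circles) and pre-transplant cyiPS-Cart (squares), at full depth (filled) and thinned to 30967 reads per cell (open), with 95% exact binomial intervals. Each pre-transplant share is below the cyiPSC share, and L1TD1 (21.5%) and SOX2 (18.4%) are the highest in pre-transplant cells.

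The pre-transplant levels were then set against those of other genes of the same library. The 8 members other than *DPPA4* and *DNMT3B* stood at 1.81% to 2.55% of their cyiPSC level, with a median of 2.44%, although their cyiPSC levels ran from 15.8 CPM to 324 CPM. For comparison, 71 genes outside the list had at least 10 CPM in cyiPSCs and no read in post-transplant, cyAC or cyFT cells, a choice made after the data were seen. Their pre-transplant level was a median 2.04% of the cyiPSC level, with quartiles of 1.68% and 2.45% and a range of 0.335% to 6.49%. Of the members, *NANOG*, *SOX2*, *SALL4*, *LIN28A* and *LIN28B* also had no read in those cells. These 5 stood at 1.81% to 2.55%, with a median of 2.53%, within the range of the 71 genes. All of the 5 but *SOX2* lay above the upper quartile of the 71. *ZFP42*, *TDGF1*, *L1TD1* and *DNMT3B*, which had reads in at least one of the tissues, lay within it too, and *DPPA4* lay above it. In the other direction, 9 chondrocyte markers stood in cyiPSCs at 0.0622% (*COL2A1*) to 2.63% (*SOX9*) of their pre-transplant level. The background correction showed on all of them but *SOX9*. The lowest count above 0 in cyiPSCs was 1 read for *SOX9* and from 7 (*MATN3*) to 170 reads (*COL2A1*) for the rest. Percents of the corrected markers can therefore not be set against those of the members other than *DNMT3B*. How much of the pre-transplant reads of the members came from RNA of the cyiPSCs in the shared library was not tested.

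**Figure D3:**
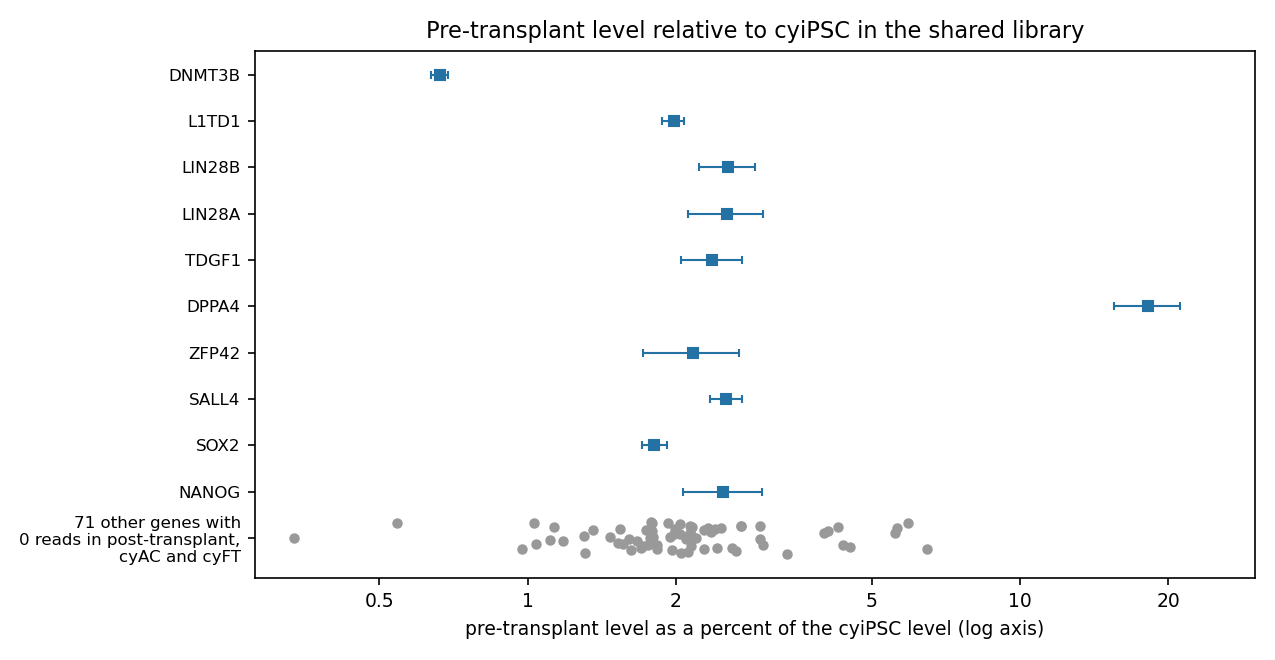
Level in pre-transplant cyiPS-Cart as a percent of the level in cyiPSCs (log axis) for each of the 10 genes, with 95% intervals (squares), and for 71 other genes without reads in post-transplant, cyAC and cyFT cells (grey points, spread vertically at random). The squares of 8 members fall between 1.81% and 2.55%, DNMT3B at 0.663% and DPPA4 at 18.2%.

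The members were next counted in each cell, to ask whether any pre-transplant cell carried the set as a cyiPSC did. A cyiPSC had reads of a median of 7 of the 10 genes, 111 of 2500 cells had all 10, and 2457 (98.3%, 97.7 to 98.8) had 3 or more. The median pre-transplant cell had none of the 10. Of 3527 pre-transplant cells, 1780 had no member, 1187 had 1, 426 had 2 and 134 (3.8%, 3.19 to 4.48) had 3 or more. Only 23 pre-transplant cells had 4 or more, the highest number was 6, and 0 of 3527 had the 7 or more found in 67.3% of cyiPSCs, which allows a share of up to 0.0851%.

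The count of 134 rested on single reads. With at least 2 reads required per gene it was 19 cells, with at least 10 reads it was 0, and after thinning it was 21 of 3174 cells (0.662%, 0.41 to 1.01), whereas the cyiPSC counts were 2441, 2268 and 2416 of 2440. Leaving out *SOX2*, *LIN28B*, *SALL4* and *DNMT3B*, which other cell types also use, 6 pre-transplant cells and 1910 cyiPSCs had 3 or more of the remaining 6 genes. Depth moved with the count. Over 4 groups of pre-transplant cells from the shallowest to the deepest, 882, 881, 882 and 882 in number, 2, 11, 31 and 90 cells had 3 or more members (0.227%, 1.25%, 3.51% and 10.2%), while the summed level of the 9 members other than *DNMT3B* was 20.3, 18.2, 18.5 and 17.9 CPM. In 4 such groups of 625 cyiPSCs that summed level was 852, 890.1, 850.2 and 843 CPM. The summed level was thus nearly flat over depth in both conditions, while the count of pre-transplant cells was larger in each deeper group.

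**Figure D4:**
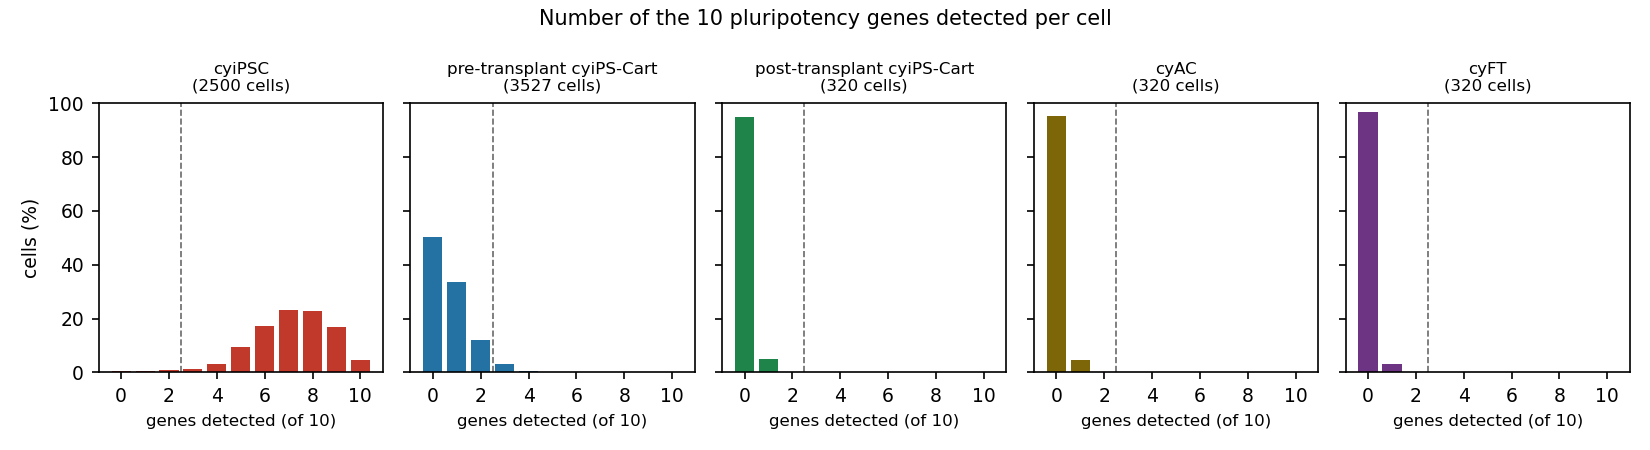
Percent of cells by the number of the 10 genes with at least 1 read, in each of the 5 conditions, with a dashed line at the limit of 3 genes. The cyiPSCs center on 7 genes, 134 of 3527 pre-transplant cells lie past the line, and no post-transplant, cyAC or cyFT cell has more than 1 gene.

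**Figure D5:**
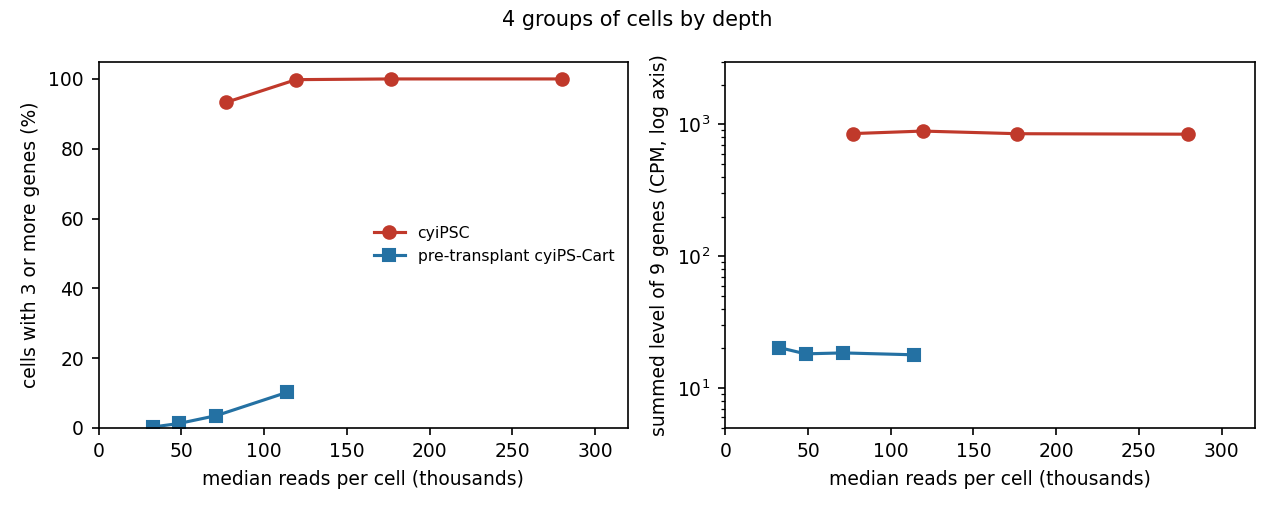
Percent of cells with 3 or more of the 10 genes (left) and summed level of the 9 genes other than DNMT3B in CPM (right, log axis) in 4 groups of the cells by depth, against the median reads per cell of the group. In pre-transplant cells the percent goes from 0.227% to 10.2% while the summed level stays between 17.9 and 20.3 CPM.

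The 134 pre-transplant cells with 3 or more members had the cartilage genes of the other pre-transplant cells. *SOX2* was found in 106 of them and *L1TD1* in 95, followed by *SALL4* in 52 and *DNMT3B* in 50, and *NANOG* was found in 20. Their median depth was 106136 reads, against 57838 in the other 3393 cells. They held a median of 8 member reads, against 359 in cyiPSCs with 3 or more members. All 134 had reads of the chondrocyte marker *ACAN* and 126 had reads of *COL2A1*, and these genes stood at 3341 and 28834 CPM, against 3432 and 28554 CPM in the other pre-transplant cells. Over 8567 genes, all 134 correlated better with the mean profile of pre-transplant cells than with that of cyiPSCs, as did every one of the 3527 pre-transplant cells. In the cell with the most members, 6 genes shared 45 reads of 115059, of which *DNMT3B* had 28 and *NANOG* 8, beside 428 reads of *ACAN* and 3220 of *COL2A1*.

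The summed level of the 10 genes per cell had a median of 2482 CPM and a 5th percentile of 896 CPM in cyiPSCs. In pre-transplant cells the median was 0, the 99th percentile was 350.3 CPM and the highest value was 913 CPM. A single pre-transplant cell of 3527 exceeded the cyiPSC 5th percentile (0.0284%, interval 7.18e-04% to 0.158%), with 4 members in 52586 reads and with *ACAN* reads. The 1st percentile of cyiPSCs was far lower, at 224 CPM, and 94 pre-transplant cells (2.67%, 2.16 to 3.25) and 2 post-transplant cells exceeded it. Without *DNMT3B* 9 pre-transplant cells exceeded the 5th percentile (0.255%, 0.117 to 0.484) and 192 the 1st percentile of that sum, 71.4 CPM (5.44%, 4.72 to 6.24), and each of the 9 had at most 2 members and had reads of *ACAN*. By gene, the pre-transplant cells above the median cyiPSC numbered 0 for *DNMT3B*, 3 for *L1TD1*, 6 for *SOX2*, 14 for *SALL4*, 33 for *LIN28B*, 43 for *TDGF1*, 50 for *ZFP42*, 55 for *LIN28A* and 67 for *NANOG*. The median cyiPSC had no read of *DPPA4*, so that its 130 positive pre-transplant cells were all above it.

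Some cyiPSCs lacked the set. Fewer than 3 members were found in 43 of 2500 cyiPSCs (1.72%), and 14 of these had none. Their median depth was 26115 reads against 145997 in the other cyiPSCs, and 22 of the 43 correlated better with the mean pre-transplant profile. The mesenchymal genes *COL3A1* and *VIM* stood at 11832 and 8939 CPM in the 43 cells and at 18.5 and 187 CPM in the other cyiPSCs. *COL3A1* was found in 19 and *VIM* in 35 of the 43, so that these sums do not describe each cell. *THY1*, also used as a fibrous marker, was lower in the 43, at 64.4 against 137 CPM. *COL1A1* was found in 10 of the 43, *ACAN* in 1 and *COL2A1* in 1, and reads of the EGFP transgene were found in all 43, at 666 CPM against 1195 CPM. The part of their low depth in the missing members was not tested.

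Within cyiPSCs, detection of a member went with that of the others by small differences once depth was equal. For each ordered pair of genes, the share of cells with the second gene was compared between thinned cells with and without the first. Of 90 ordered pairs, 84 had a higher share with the first gene, but the median difference was 2.1 percentage points. Both orders of a pair always share their sign, so that the 90 are not separate results. Cells with *NANOG* had *TDGF1* in 47.3% (43.7 to 50.9), against 40.2% (37.9 to 42.6) of cells without *NANOG*. *DPPA4* was found with *NANOG* in 9.97% (7.95 to 12.3) and without it in 7.19% (6 to 8.54), intervals that overlap. *LIN28A* was found in 35.9% and 34.8% and *LIN28B* in 52.2% and 51.3%, differences within their intervals. *LIN28A* and *LIN28B* differed as little, with *LIN28B* in 52.4% (49 to 55.8) of cells with *LIN28A* and 51.1% (48.6 to 53.6) of cells without it.

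The largest differences came from the few cells without the abundant genes. Among 27 thinned cyiPSCs without *DNMT3B*, *L1TD1* was found in 51.9% (31.9 to 71.3), *SALL4* in 37% (19.4 to 57.6), *TDGF1* in 3.7% and *NANOG* in 3.7%. Among the 2413 cells with *DNMT3B* the shares were 97.9%, 82.8%, 42.9% and 32%. Without the cyiPSCs that had fewer than 3 members at full depth, a choice made after the data were seen, the median difference was 1.18 points and 68 of 90 pairs were above 0. The differences then ran from −29.1 to 35.8 points. This cut is on the members themselves and can alone lower the differences. At full depth, where deep cells have reads of more genes, the median difference was 13.8 points. In thinned pre-transplant cells, *SOX2* was found in 15% of the 173 cells with *DNMT3B* and 9.9% of the 3001 without, and *L1TD1* in 20.2% and 12.6%. Over 90 ordered pairs the differences ran from −8.49 to 7.67 points, 46 were above 0 and the median was 0.155 points. The lowest was that of *L1TD1*, in 1 of 22 cells with *ZFP42* (4.55%) and in 13% of those without it. *L1TD1* was found in 12.1% of pre-transplant cells with *SOX2* and in 13.1% of those without it. Of 40 pre-transplant cells with *NANOG*, 2 had *SOX2* (5%, against 10.2% without *NANOG*) and 7 had *L1TD1* (17.5%, against 12.9%).

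The genes most like the set within cyiPSCs were sought by correlating each gene, over 2440 thinned cells, with the number of members detected. The highest of 7019 genes included *SNRPN*, *USP44*, *TERF1*, *SEPHS1*, *CD200*, *PSIP1*, *XRCC6*, *DUT* and *XRCC5*, with Pearson's r from 0.252 (*XRCC5*) to 0.300 (*SNRPN*). These correlations are weak and come from 1 library, whose composition they share. They were lower, from 0.090 to 0.221, over the 2423 cells that had 3 or more members at full depth. That cut is on the number of members itself and can alone lower them. *USP44*, a ubiquitin protease of the mitotic checkpoint, and *TERF1*, a telomere-binding protein, also belonged to a wider list of pluripotency genes. In pre-transplant cells these genes were lower, from 0.609% of the cyiPSC level for *USP44* to 30.6% for *XRCC6*, which encodes the DNA repair protein KU70.

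After transplantation the members were sparser still. Of the 10 genes, 8 had no read in 320 post-transplant cells, a result that leaves room for a read in up to 0.938% of the cells and for 0.1 CPM, and that sets no limit on cells expressing the genes below detection. In the 320 pre-transplant cells of the same matrix, 300 of which were also in the larger matrix, *L1TD1* was at 6.86 CPM (5.79 to 8.06), and the exact interval of the ratio put its post-transplant level at no more than 1.83% of that. *SOX2*, at 3.66 CPM (2.9 to 4.57) before transplantation, had an upper bound of 3.45% in the same way. *SALL4*, *TDGF1* and *LIN28B*, at 1.41, 1.13 and 0.986 CPM before, had upper bounds of 9.33%, 11.9% and 13.7%. *LIN28A*, *ZFP42* and *NANOG* rested on 9, 7 and 5 reads before transplantation, and their upper bounds were 36.1%, 49.5% and 77.8%.

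The remaining 2 genes still had reads after transplantation. *DNMT3B* was at 12 CPM (10.6 to 13.5) in 17 cells before transplantation and 3.38 CPM (2.76 to 4.11) in 7 of 320 cells after it, 28.2% (22.2 to 35.7) of the earlier level. *DPPA4* was at 1.22 CPM (0.798 to 1.79) in 17 cells before and 1.24 CPM (0.873 to 1.71) in 9 cells after, a ratio of 101% with an interval of 59.8% to 175%. On the log2(CPM + 1) scale the median member ratio was −1.04. The pseudocount of 1 keeps a gene below 3 CPM from reaching a 4-fold difference on this scale even with no read, which held for 7 of the 10 members, so that no count of members is given. *L1TD1* had a log2 ratio of −2.97 and *SOX2* of −2.22. *DNMT3B*, the member with at least 10 CPM, was at −1.57, and of the 7587 genes with that level 3.93% were at least 4-fold lower. The post-transplant cells had more reads than the 320 pre-transplant cells, with medians of 80335.5 and 58413.5, but fewer genes, with medians of 2594.5 and 3765, and the part of this in the difference was not tested. In addition, the pre-transplant cells shared a library with cyiPSCs whereas the post-transplant cells did not, so that transplantation and library cannot be told apart.

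No post-transplant cell had more than 1 member. Of the 320 cells, 16 had 1 member, 9 of them *DPPA4* and 7 *DNMT3B*, and 0 had 3 or more, whereas 10 of the 320 pre-transplant cells had 3 or more (3.12%, 1.51 to 5.67). The pre-transplant count was lower under stricter settings here too, with 1 of 320 cells at 2 reads or more per gene and 0 at 10 reads. It was 0 of 319 once all cells of this matrix were thinned to 12191 reads. At that depth 54 of 319 pre-transplant cells (16.9%) had at least 1 member and 7 had 2, against 5 of 320 (1.56%) and 0 after transplantation. The 0 of 320 post-transplant cells with 3 or more leaves room for up to 0.938%. The highest summed level in a post-transplant cell was 373 CPM, below the 5th percentile of cyiPSCs at 896 CPM, though the libraries differ.

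The native tissues gave the level in cells that never were cyiPSCs. In cyAC, 7 members had no read, *DPPA4* was at 1.27 CPM (0.71 to 2.09) in 10 of 320 cells, *TDGF1* at 0.846 CPM in 2 cells and *DNMT3B* at 1.61 CPM in 3 cells. In cyFT, *TDGF1* was at 1.35 CPM in 2 cells, *DNMT3B* at 1.17 CPM in 3 cells, *DPPA4* at 0.451 CPM in 3 cells, *ZFP42* at 0.451 CPM in 1 cell and *L1TD1* at 0.18 CPM in 1 cell, and the other 5 had no read. *NANOG*, *SOX2*, *SALL4*, *LIN28A* and *LIN28B* had thus no read in cyAC, cyFT or post-transplant cells, with floors of 0.254, 0.271 and 0.1 CPM. The intervals of *DPPA4* overlapped among pre-transplant, post-transplant, cyAC and cyFT cells of this matrix. For *DNMT3B* the post-transplant interval (2.76 to 4.11) lay above those of cyAC (0.967 to 2.51) and cyFT (0.624 to 2), in another library. No cell of cyAC or cyFT had more than 1 member.

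Genes that work with the members were followed as lists. Of 24 listed genes of a wider pluripotency list, 15 had at least 10 CPM in cyiPSCs or pre-transplant cells, 12 of these were at least 4-fold lower in pre-transplant cells and 1 was at least 4-fold higher, with a median log2 ratio of −4.21, beside 13.7% of all tested genes that were as low. The lowered genes included *USP44* (469.6 and 2.86 CPM, −6.93) and the homeobox gene *OTX2* (161 and 2.84 CPM, −5.40). Both passed the minimum of 10 CPM only through cyiPSCs, as did *IGF2BP1* and *ARID3A* of the next list. Counts of lowered genes can therefore not be read as support against the share of all genes. The gene that was higher was *KLF4*, a reprogramming factor that many differentiated cells also use, at 11.4 CPM in the cyiPSCs and 735 CPM in cells of pre-transplant cyiPS-Cart, a log2 ratio of 5.89, beside 8.41% of all tested genes that were at least 4-fold higher. *KLF4* was at 988 CPM after transplantation and was at 804 CPM in cyAC and 1644 CPM in cyFT.

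In the list of LIN28 and let-7 genes, 3 of 12 were at least 4-fold lower and none higher, with a median of −1.24, beside 13.7% of all tested genes that were as low. The 3 were the IMP-family RNA-binding protein genes *IGF2BP3* (619.8 and 15.9 CPM, −5.20) and *IGF2BP1* (40.9 and 0.803 CPM, −4.54), both known let-7 targets, and the transcription factor *ARID3A* (−3.28). The microRNA processing genes differed less and in both directions, from −1.73 for *XPO5*, the exporter of microRNA precursors, to 1.00 for *AGO2*, which binds mature microRNAs (71.9 and 145 CPM). Listed genes of NODAL signaling differed in both directions. *FOXH1*, the partner of SMAD2 in NODAL signaling (63.6 and 1.16 CPM, −4.90), and the activin receptor *ACVR2B* (−3.95) were lower. *SMAD3*, which also carries TGF-β signals, had a log2 ratio of 1.77. With TMM factors 3 genes of the let-7 list were at least 4-fold lower and none higher, beside 7.76% and 13.4% of all genes.

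Of 8 DNA methylation genes beside *DNMT3B*, 7 were at least 4-fold lower and none higher, with a median of −2.95, beside 13.7% lower and 8.41% higher of all tested genes, the shares to set beside each list of this paragraph. They included the chromatin remodeler *HELLS* (326 and 15.7 CPM, −4.29), *ZFP57*, which guards imprinted regions (22.9 and 0.453 CPM, −4.04), *UHRF1*, which recruits DNMT1 to replicating DNA (118 and 8.72 CPM, −3.61), and the dioxygenase *TET1* (60.3 and 5.03 CPM, −3.35). Of 9 SALL and NuRD genes, 5 were at least 4-fold lower and none higher, with a median of −2.24, led by *SALL2* (−5.28), *SALL1* (−4.72), *MTA3* (−3.77) and *RBBP4* (−2.31). *UHRF1*, *TET1*, *ZFP57*, *SALL1* and *SALL2* passed the minimum of 10 CPM only through cyiPSCs. The counts of both lists can therefore not be read as support against those shares. The 5 listed cycling genes were all at least 4-fold lower, with a median of −4.03 and a summed level of 1939 CPM in cyiPSCs, 100.2 CPM in pre-transplant cells and 13.5 CPM after transplantation. Several genes of these lists, among them *UHRF1*, *HELLS* and *RBBP4*, also serve DNA replication, and the part of cycling in their difference was not tested. The 9 listed chondrocyte genes moved the other way, all at least 4-fold higher, with a median of 7.92. With TMM factors, under which 7.76% of all genes were lower and 13.4% higher, 10 of the 15 wider pluripotency genes, 4 of the 8 DNA methylation genes and 3 of the 9 SALL and NuRD genes were at least 4-fold lower, and the calls of the cycling and chondrocyte genes were the same in number.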

How the data were processed

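Single-cell transcriptomes of cyiPSCs, pre-transplant and post-transplant cyiPS-Cart, cyAC and cyFT were analysed from 2 deposited matrices of read counts per gene and cell. The authors assigned reads with Bowtie2 2.4.2 to Ensembl transcripts of Macaca_fascicularis_6.0, kept cells whose reads passed the knee plot's inflection point, separated conditions by hashtag, and set counts taken as diffused background to 0 in genes whose log2 maximum exceeded 8. The submitters' processing notes name GRCh38 as build and also cutadapt 3.4 and R 3.6.3. No step that counts molecules is described, so counts were taken as reads, intervals cover counting error only, and all of them are at 95%.

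Raw counts were summed per condition (Python 3.11.15, numpy 2.4.6, scipy 1.17.1, pandas 2.3.3) and scaled to CPM. Intervals were exact Poisson for sums, exact Clopper-Pearson for shares and exact conditional for ratios. Where no read or cell was found, the limit given is the value of 3 reads or 3 cells. It lies slightly below the exact bound, which is 1.15% for 0 of 320 cells. Log2 ratios used a pseudocount of 1, and genes with at least 10 CPM in either condition formed the background. No test was run, each condition being 1 sample. Cells were thinned without replacement to the 10th percentile of pre-transplant depth, leaving out 60 cyiPSCs and 353 pre-transplant cells. The computation was tested on simulated data of the comparison of pre-transplant cells with cyiPSCs over 8576 genes, where the direction of 200 changed genes was recovered in 100.0%. These changes were large and the counts held counting error alone, so that this could hardly fail. The largest error of a log2 ratio was 1.907. In simulated cells of 1 composition at unequal depth, member shares differed by up to 28.3 points at full depth and 10.3 points after thinning. Alternatives were the mean of per-cell CPM, mitochondrial genes left out, TMM factors (edgeR 4.0.16, R 4.3.3), other pseudocounts and minimums, detection at 2 or 10 reads, a stricter cell filter (at least 500 genes, mitochondrial share within 3 median absolute deviations) and scrublet through scanpy 1.11.5. Scrublet marked 14 of 2500 cyiPSCs and 0 of 3527 pre-transplant cells, too few to be taken as working, and no cell was removed for it.

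The members and all gene lists were chosen with earlier results of these data known. Named from each list were up to 4 genes with the largest absolute log2 ratio among those with at least 10 CPM, and the 10 genes most correlated with the number of members among genes found in at least 25% of cyiPSCs. Some genes that these rules name are not reported here. A gene named in the text outside these rules was chosen after its values were seen. *TDGF1* was the member without an entry in the RefSeq symbol table. A planned search for motifs in promoters was not run, and no coordinates are given, since no table of the build used was at hand.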

Additional observations from a re-analysis of the deposited data

How the results depend on the processing

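No paired analysis was possible because each condition was 1 sample. The 10 members kept a negative log2 ratio between cyiPSCs and pre-transplant cells in all 70 combinations of member and alternative. The median of −4.30 became −3.81 with TMM factors, −5.20 with a pseudocount of 0.1 and −2.08 with a pseudocount of 10, and the count of members at least 4-fold lower was 6 with a pseudocount of 10, 10 with 0.1 and 9 otherwise. The number of all genes as low, 1172, became 660 with TMM factors, 488 with a pseudocount of 10 and 627 of 4688 genes at a minimum of 50 CPM. The median ratio after transplantation, −1.04, became −2.91 and −0.14 with pseudocounts of 0.1 and 10, since 8 members had no read there. The median share of cyiPSCs with a read of a member, 68.3%, became 61.1% at 2 reads, 23.7% at 10 reads and 47% thinned, and that of pre-transplant cells, 3.69%, became 1.12%, 0.0992% and 2.02%. The 134 pre-transplant cells with 3 or more members became 19 at 2 reads, 0 at 10 reads, 21 thinned, 6 without the 4 members that other cell types use, 560 for 2 or more members and 23 for 4 or more. Median co-detection, 2.1 points, became 13.8 at full depth and 2.53 with another random draw. The stricter cell filter moved none of these values beyond counting error. Leaving out cells marked by scrublet is no check on pre-transplant values, since it marked 0 of 3527. No post-transplant cell had more than 1 member, so that stricter settings could only return 0 with 3 or more.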

Other observations

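Markers of other lineages differed in direction. Of 7 fibrous genes, 6 were at least 4-fold higher in pre-transplant cells than in cyiPSCs, among them *COL3A1* (61.3 and 11734 CPM) and *COL1A1* (73.9 and 7255 CPM), beside 8.41% of all genes. The 5 listed genes of primitive streak and mesoderm summed to 9.48 CPM in cyiPSCs, 1.38 CPM in pre-transplant cells and 5.96 CPM after transplantation, and none had 10 CPM in cyiPSCs or pre-transplant cells. *GSC* held 5.53 CPM of the post-transplant sum, while *TBXT* and *EOMES* had no read there. Of 10 listed neural genes, *NES*, an intermediate filament that cyiPSCs also carry, was at 369 CPM in cyiPSCs and 35.8 CPM before transplantation (log2 ratio −3.33), *MAP2* had a log2 ratio of −1.11 and the tubulin gene *TUBB3* was at 4.55 and 15.2 CPM (1.54). The endoderm marker *AFP* was at 20.2 CPM in cyiPSCs, in 45.9% of the cells, and at 0.237 CPM in pre-transplant cells. *CXCR4*, of the same list, was at 2.54, 6.47 and 18 CPM in cyiPSCs, pre-transplant and post-transplant cells, the last in another library. *SOX17* (2.08 and 0.0333 CPM), *GATA4* (1.25 and 0.0416 CPM) and *FOXA2* (0.65 and 0.0499 CPM) were lower in pre-transplant cells than in cyiPSCs, and *TTR* had no read. Of this list only *AFP* had at least 10 CPM in cyiPSCs or pre-transplant cells.

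In pre-transplant cells the mitotic gene *CCNB1* was found in 7.95% of the 176 thinned cells that had *DNMT3B* at full depth and in 3.04% of the 2998 that had not. It was found in 0 of the 127 cells with *DPPA4* and 3.45% of the 3047 without it. The other cycling genes were found with and without *DPPA4* in 3.15% and 5.87% (*TOP2A*), 2.36% and 5.64% (*CDK1*), 13.4% and 14.6% (*MKI67*) and 11.8% and 11.7% (*CCNA2*). Cells with and without *DNMT3B* had *MKI67* in 16.5% and 14.4% and *COL2A1* in 87.5% and 93.2%. These are shares of cells of 1 sample and carry no test.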
